A study of Mus musculus with 8 samples.

Results

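The 9 genes described here mark the trophectoderm, the outer epithelium of the blastocyst: the transcription factors Cdx2, Eomes, Elf5, Tfap2c, Gata3 and Hand1, and the keratins Krt7, Krt8 and Krt18. They were chosen by symbol, as the rows of a gene count table whose Ensembl ID without its version maps to these names. All 9 had a row among the 47643 rows of the table, and 6 of them had enough counts for a test.

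Embryonic stem cells come from the inner cell mass of the blastocyst, while the trophectoderm forms the placental lineages. In the outer cells of the embryo, TEAD and YAP switch on Cdx2 and Gata3, Tfap2c acts beside them, and Eomes and Elf5 are needed in trophoblast stem cells, whereas Hand1 acts in trophoblast giant cells. Krt8 (type II) and Krt18 (type I) pair into the first keratin filaments of the embryo, and Krt7 is a further type II keratin of simple epithelia. Cdx2 and Eomes also act outside the trophoblast, in the posterior body axis and in the primitive streak.

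Polyadenylated RNA was sequenced from Dgcr8 KO, Drosha KO, Ago1_2 KO and wild-type (WT) mouse E14 embryonic stem cells of the 129/Ola strain, with 2 libraries per genotype. Drosha, an RNase, and its partner Dgcr8 cut miRNA hairpins out of primary transcripts, and Argonaute proteins such as Ago1 and Ago2 carry the mature miRNAs. All 4 genotypes, WT included, were kept for at least 2 weeks in 2i medium, which is N2B27 with LIF, the GSK3 inhibitor CHIR99021 and the MEK inhibitor PD0325901. The labels give the blastocyst as the source tissue. Nothing in them tells if same-genotype libraries are separate clones or cultures, so the p-values measure only the spread between these libraries, which may be technical.

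The libraries held 13229771 to 26333907 counts, and intervals on counts cover counting error only, since reads without molecular identifiers are not independent molecules. All 12 naive pluripotency markers examined had counts, and their summed level was 5082 to 6179 CPM (counts scaled to library sizes corrected by the TMM method) in every library. Drosha mRNA was at 51.2 and 82.4 CPM in Drosha KO and 278 and 266 CPM in WT (log2 fold change -2.02, adjusted p = 0.00196). The other labels were not borne out by their own transcripts in this way, so they rest on the submitters' word, and "Dgcr8 KO" and "Ago1_2 KO" stand for the libraries so labelled. Dgcr8 mRNA was at 391.8 and 370.2 CPM in Dgcr8 KO and 304 and 234 CPM in Drosha KO, against 78.1 and 70.5 CPM in WT. The log2 fold changes were 2.36 (adjusted p = 0.00101) and 1.86 (adjusted p = 0.00132), and 0.23 in Ago1_2 KO (adjusted p = 0.426). An mRNA level does not tell whether the protein was lost. Ago1 was at 160 and 87.8 CPM in Ago1_2 KO against 106 and 63.3 CPM in WT, and Ago2 at 216 and 195 CPM against 464 and 227 CPM (adjusted p = 0.132). The WT libraries and the Drosha KO libraries differed most between themselves, with 1623 and 1412 genes more than 2-fold apart, against 120 for the Dgcr8 KO libraries and 243 for the Ago1_2 KO libraries.

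Genes count as called below an adjusted p of 0.05, from edgeR's quasi-likelihood test with Benjamini-Hochberg adjustment over the 16388 genes tested, and each ± beside a log2 fold change is its standard error. Elf5, Gata3 and Hand1 fell below the filter on low counts. Cdx2 passed it only through Dgcr8 KO, so its comparisons are read as descriptions. In Dgcr8 KO against WT, 2 of the 6 tested genes were called, Krt7 and Krt18, both lower (6.93% of all tested genes were called, 2.45% higher and 4.48% lower). In Drosha KO against WT, Eomes alone was called, lower (11.4% of all tested genes were called, 6.54% higher and 4.83% lower). In Ago1_2 KO against WT, Eomes and Krt18 were called, both lower (17.6% of all tested genes were called, 10.2% higher and 7.38% lower). None of the 6 tested genes was called higher than WT in any KO in this fit, which says nothing of Elf5, Gata3 and Hand1. With 2 libraries against 2, values that do not overlap between the groups were common: this held for 61.8% of all tested genes in Dgcr8 KO, 51.2% in Drosha KO and 62.4% in Ago1_2 KO against WT, for 64.6% in Drosha KO and 74.3% in Ago1_2 KO against Dgcr8 KO, and for 39.6% in Ago1_2 KO against Drosha KO.

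**Figure D1:**
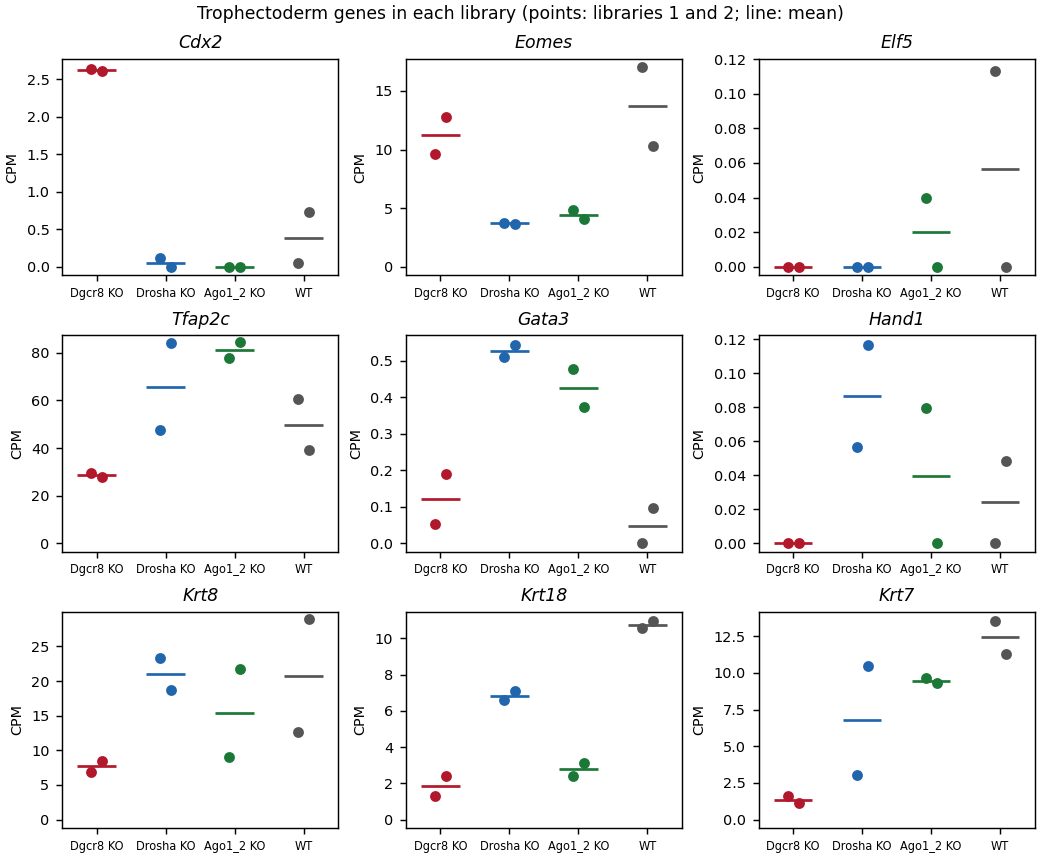
CPM (vertical axes, linear, each panel with its own scale) of the 9 trophectoderm genes in each of the 8 libraries by genotype; points are the 2 libraries of a genotype and lines their mean. Cdx2 stood at 2.61 to 2.64 CPM in the Dgcr8 KO libraries and at 0.726 CPM or less in the other 6, while Krt7, Krt8 and Krt18 had their lowest genotype mean in Dgcr8 KO.

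Per kilobase of annotated exon, Tfap2c had the highest level of the 9 genes in every genotype, with 7.79 CPM per kb in Dgcr8 KO, 17.9 CPM per kb in Drosha KO, 22.1 CPM per kb in Ago1_2 KO and 13.6 CPM per kb in WT. Krt8 came next in every genotype, at 3.94, 10.7, 7.85 and 10.6 CPM per kb in that same order of genotypes. In WT the order went on with Krt18 (7.49 CPM per kb), Eomes (3.29), Krt7 (1.76) and Cdx2 (0.173), and Gata3, Hand1 and Elf5 lay at or under 0.0122. In Dgcr8 KO, Eomes (2.70 CPM per kb) stood above Krt18 (1.30), and Cdx2 (1.16) stood above Krt7 (0.193). These levels are descriptions, since neighbouring genes in the order were not tested against each other.

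Cdx2, the homeobox factor of the trophectoderm, gave most of its counts in Dgcr8 KO. It had 50 and 41 counts in the Dgcr8 KO libraries, 2 and 0 counts in Drosha KO, 0 and 0 counts in Ago1_2 KO, and 1 and 15 counts in WT. In CPM this was 2.64 and 2.605 in the Dgcr8 KO libraries, 0.114 and 0 in those of Drosha KO, 0 and 0 in those of Ago1_2 KO, and 0.0564 and 0.726 in WT. The Dgcr8 KO libraries lay close together and above both WT libraries, the WT libraries differed widely from each other, and a count of 0 over both Ago1_2 KO libraries allows a level of up to 0.0779 CPM. Cdx2 passed the filter on low counts only through its level in Dgcr8 KO.

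Against WT, the count ratio of Cdx2 in Dgcr8 KO was 6.29-fold (exact 95% interval 3.67 to 11.5), but the log2 fold change of 2.68 ± 0.86 was not called (adjusted p = 0.0872). Over 18 alternative settings its adjusted p ran between 0.000736 and 0.356 and was under the threshold in 1, with no filter on low counts. The WT libraries decided its size: the log2 fold change was 1.86 without WT library 1, which had 1 count, and 5.39 without WT library 2, which had 15. In Drosha KO the count ratio was 9.05-fold lower than WT (2.13 to 81.1), on 2 counts, and was not called (adjusted p = 0.173). In Ago1_2 KO, Cdx2 was at least 5.35-fold lower than WT by counts and was not called (adjusted p = 0.0681). Both of these passed the threshold with no filter on low counts and without WT library 1 (adjusted p = 0.043 for Drosha KO, range 0.023 to 0.957, and 0.0192 for Ago1_2 KO, range 0.000605 to 0.4, over their 17 alternatives each), and the second also with DESeq2 (0.0235).

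By counts, Cdx2 was 57.0-fold lower in Drosha KO than in Dgcr8 KO (exact 95% interval 15.3 to 477), and at least 33.7-fold lower in Ago1_2 KO than in Dgcr8 KO. These ratios are descriptions with no test, since the Dgcr8 KO level alone brought Cdx2 past the filter. In all fits that leave a genotype with 1 library, that library is assumed to vary like those of the other genotypes.

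The genes whose levels followed Cdx2 most closely over the 8 libraries were Nkx1-2, Akap6 and Cnga4, out of 10971 candidates. Their root mean square differences from Cdx2, on centred log2 CPM, were 0.598, 0.654 and 0.706, where Cdx2 itself had an SD of 2.08. Nkx1-2, a homeobox gene, was at 103 and 104 CPM in Dgcr8 KO, 10.2 and 5.35 CPM in Drosha KO, 3.18 and 4.12 CPM in Ago1_2 KO, and 21.1 and 33.8 CPM in WT. T (Brachyury), the defining gene of the primitive streak, had 49.5 and 63.3 CPM in Dgcr8 KO, 0.340 and 0.0388 CPM in Drosha KO, 0 and 0.0748 CPM in Ago1_2 KO, and 12.6 and 33.1 CPM in WT. T and Cdx2 were both high in Dgcr8 KO, at or near 0 in Drosha KO and Ago1_2 KO, and higher in WT library 2 than in WT library 1. All 12 primitive streak and mesoderm markers examined had counts in at least 1 library, and their summed CPM was 56.1 and 69.5 in the Dgcr8 KO libraries, 9.70 and 10.3 in those of Drosha KO, 23.6 and 32.1 in those of Ago1_2 KO, and 16.9 and 39.6 in WT. Most of that sum in Dgcr8 KO and WT was T, and other markers of the list went another way. Evx1, a homeobox gene of the streak, had 41 counts in Drosha KO and 98 in Ago1_2 KO, against 1 in WT. This is a description, since Evx1 passed the filter only through these mutants. Kdr, a receptor of vascular mesoderm, had log2 fold changes against WT of 2.36 in Dgcr8 KO, 2.29 in Drosha KO and 4.62 in Ago1_2 KO. These are descriptions too, since Kdr had 22 counts in WT and passed the filter only through the mutants. The part of such cells in the Cdx2 level was not tested, and in bulk RNA fewer cells of a type and less RNA per cell cannot be told apart.

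Cdx2 lies on chromosome 5 (147300805 to 147307270, minus strand, GRCm38, 3 exons). The 250 bases before its RefSeq start (chr5:147307250-147307499, minus strand, GRCm38.p6) are shown because Cdx2 was the member with the widest range between genotypes. Capitals mark the palindromic AP-2 motif GCCNNNGGC, the motif of the factor family that includes Tfap2c, found at position -16 from the RefSeq start. The last 21 bases, which hold the match, lie within the first exon as GENCODE annotates it.

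Cdx2 upstream window: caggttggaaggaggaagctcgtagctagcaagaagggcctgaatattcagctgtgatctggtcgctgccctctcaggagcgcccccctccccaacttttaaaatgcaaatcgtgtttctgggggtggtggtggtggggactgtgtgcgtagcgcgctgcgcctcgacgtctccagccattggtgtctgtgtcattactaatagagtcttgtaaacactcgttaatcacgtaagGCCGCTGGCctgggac

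Eomes, a T-box factor needed for the trophoblast lineage and also for mesendoderm, fell in Drosha KO and in Ago1_2 KO. It had 3.75 and 3.68 CPM in Drosha KO, 4.82 and 4.04 CPM in Ago1_2 KO, 9.66 and 12.8 CPM in Dgcr8 KO, and 17.0 and 10.3 CPM in WT. All 4 libraries of Drosha KO and Ago1_2 KO lay below all 4 of Dgcr8 KO and WT, and the Dgcr8 KO and WT libraries overlapped. How many of all tested genes separate in this way was not computed. The same holds for every split below that sets more than 2 libraries against others, so these splits are descriptions. Against WT, Eomes was 3.68-fold lower in Drosha KO (log2 fold change -1.88 ± 0.34, adjusted p = 0.0104). That call held in 18 of 18 alternatives, with an adjusted p of 0.0474 at most.

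Against WT, Eomes was 3.07-fold lower in Ago1_2 KO (log2 fold change -1.62 ± 0.34, adjusted p = 0.0132). That call was lost without Ago1_2 KO library 1 (adjusted p = 0.0825) or library 2 (0.116), in a range of 0.000249 to 0.116 over 18 alternatives. In Dgcr8 KO the log2 fold change was -0.29 (95% interval -1.01 to 0.44, adjusted p = 0.572). Eomes was also lower than in Dgcr8 KO in Drosha KO (log2 fold change -1.59 ± 0.34, adjusted p = 0.0147) and in Ago1_2 KO (-1.33 ± 0.34, adjusted p = 0.0252). Both calls were lost without either Dgcr8 KO library (adjusted p = 0.0744 and 0.139 for Drosha KO, 0.0958 and 0.206 for Ago1_2 KO). The first was also lost without Drosha KO library 2 (0.0525) and the second without Ago1_2 KO library 1 (0.11) or 2 (0.192), and the ranges over 18 alternatives were 0.000491 to 0.139 and 0.00114 to 0.206.

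Among the genes that followed Eomes most closely were Wdr31 and Cdkn3, with root mean square differences of 0.247 and 0.26 against an SD of 0.875 for Eomes. Eomes lies on chromosome 9 (118478212 to 118486132, plus strand), and 118 of its exonic bases overlap the antisense gene Gm33460, which has no row in the table.

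Tfap2c, the AP-2 gamma factor, is expressed in the trophectoderm and also in naive pluripotent cells, and it was the most abundant transcription factor of the set. It had 29.5 and 27.8 CPM in Dgcr8 KO, 47.7 and 84.0 CPM in Drosha KO, 78.0 and 84.5 CPM in Ago1_2 KO, and 60.7 and 39.1 CPM in WT. The Dgcr8 KO libraries lay below and the Ago1_2 KO libraries above both WT libraries, and the Drosha KO libraries overlapped with WT. None of these differences from WT was called: the log2 fold changes were -0.80 (95% interval -1.46 to -0.14, adjusted p = 0.111) in Dgcr8 KO, 0.40 (-0.25 to 1.05, adjusted p = 0.379) in Drosha KO and 0.70 (0.05 to 1.36, adjusted p = 0.12) in Ago1_2 KO. The Ago1_2 KO difference passed the threshold without WT library 1 (log2 fold change 1.09, adjusted p = 0.0372) and with no filter on low counts, in a range of 0.0372 to 0.384 over 18 alternatives. The Dgcr8 KO difference passed it with no filter alone (0.0177, highest 0.402). Between the mutants, Tfap2c was 2.83-fold higher in Ago1_2 KO than in Dgcr8 KO (log2 fold change 1.502 ± 0.30, adjusted p = 0.00952) and 2.30-fold higher in Drosha KO than in Dgcr8 KO (1.20 ± 0.30, adjusted p = 0.0258).

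The first of these calls for Tfap2c was lost without Dgcr8 KO library 1 (adjusted p = 0.079) or 2 (0.0899) and without Ago1_2 KO library 2 (0.0642), in a range of 2.17e-07 to 0.0899. The second was lost without Dgcr8 KO library 1 (0.154) or 2 (0.164) and without Drosha KO library 2 (0.135), where the log2 fold change was 0.74, in a range of 5.17e-05 to 0.164. Wfs1, Tmc7 and Icam1 followed Tfap2c most closely, with root mean square differences of 0.13, 0.147 and 0.156 against an SD of 0.656. Wfs1, an endoplasmic reticulum membrane protein, was at 11.9 and 12.1 CPM in Dgcr8 KO, 20.2 and 28.4 CPM in Drosha KO, 30.5 and 33.5 CPM in Ago1_2 KO, and 21.3 and 17.2 CPM in WT. Tfap2c lies on chromosome 2 (172549593 to 172558622, plus strand).

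Gata3, a zinc-finger factor that acts in parallel to Cdx2, was near the detection limit in every genotype and gave most of its counts in Drosha KO and Ago1_2 KO. It had 9 and 14 counts in Drosha KO, 12 and 5 counts in Ago1_2 KO, 1 and 3 counts in Dgcr8 KO, and 0 and 2 counts in WT. Every Drosha KO and Ago1_2 KO library had more counts than any Dgcr8 KO or WT library. The count ratio against WT was 10.2-fold (exact 95% interval 2.51 to 89.0) in Drosha KO and 8.48-fold (2.01 to 75.7) in Ago1_2 KO. With no filter on low counts, over 27381 genes, Gata3 had an adjusted p of 0.0299 in Drosha KO and 0.0555 in Ago1_2 KO against WT. At its highest, 0.543 CPM in Drosha KO library 2, Gata3 remained far below Tfap2c. Gata3 lies on chromosome 2 (9857078 to 9890034, minus strand).

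Elf5 and Hand1 were not detectable beyond a few counts. Elf5, an ETS factor of trophoblast stem cells on chromosome 2 (103411688 to 103450989), had 0 and 0 counts in the Dgcr8 KO libraries, 0 and 0 in those of Drosha KO, 1 and 0 in those of Ago1_2 KO, and 2 and 0 in WT. Hand1, a bHLH factor on chromosome 11 (57828705 to 57832818), had 0 and 0 counts in the Dgcr8 KO libraries, 1 and 3 in those of Drosha KO, 2 and 0 in those of Ago1_2 KO, and 0 and 1 in WT. A count of 0 over both Dgcr8 KO libraries allows a level of up to 0.0865 CPM for either gene.

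The keratins had their lowest levels in Dgcr8 KO. Krt18, the type I partner of Krt8, had 1.32 and 2.41 CPM in Dgcr8 KO, 6.58 and 7.09 CPM in Drosha KO, 2.43 and 3.14 CPM in Ago1_2 KO, and 10.6 and 11.0 CPM in WT. The WT libraries lay above all 6 mutant libraries, and the Drosha KO libraries lay between WT and the other mutants. Against WT, Krt18 was 5.79-fold lower in Dgcr8 KO (log2 fold change -2.53 ± 0.38, adjusted p = 0.00932) and 3.89-fold lower in Ago1_2 KO (-1.96 ± 0.37, adjusted p = 0.00849). In Drosha KO the log2 fold change of Krt18 against WT was -0.65 (95% interval -1.43 to 0.12, adjusted p = 0.232), and it was called in none of 18 alternatives.

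The Krt18 calls against WT were lost without Dgcr8 KO library 1 (adjusted p = 0.143) or 2 (0.0538) for Dgcr8 KO, in a range of 2.52e-07 to 0.143, and without Ago1_2 KO library 1 (0.0947) or 2 (0.0613) for Ago1_2 KO, in a range of 4.5e-05 to 0.0947. Krt18 was 3.68-fold higher in Drosha KO than in Dgcr8 KO (log2 fold change 1.88 ± 0.37, adjusted p = 0.0115), and this call was lost without Dgcr8 KO library 1 (0.147) or 2 (0.0511), in a range of 0.000146 to 0.147. Its log2 fold change in Ago1_2 KO against Dgcr8 KO was 0.57 (95% interval -0.28 to 1.43, adjusted p = 0.326). For Ago1_2 KO against Drosha KO it was -1.31 (-2.12 to -0.50), with an unadjusted p of 0.00502 and an adjusted p of 0.18, so that difference was not called. Kdelr3, Fam25c and Krtcap3 followed Krt18 most closely (root mean square differences 0.36, 0.383 and 0.436, SD 1.1).

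Krt7 fell in Dgcr8 KO. It had 1.58 and 1.14 CPM in Dgcr8 KO, 3.06 and 10.5 CPM in Drosha KO, 9.63 and 9.28 CPM in Ago1_2 KO, and 13.5 and 11.3 CPM in WT. Both Dgcr8 KO libraries lay below the other 6, and the Drosha KO libraries were more than 3-fold apart. Against WT, Krt7 in Dgcr8 KO was 9.03-fold lower (log2 fold change -3.17 ± 0.54, adjusted p = 0.0141). That call was lost without Dgcr8 KO library 1 (0.136) or 2 (0.129), in a range of 6.92e-12 to 0.136.

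In Drosha KO the log2 fold change of Krt7 against WT was -0.86 (95% interval -1.93 to 0.21, adjusted p = 0.255), but without Drosha KO library 2 it was -2.01 (adjusted p = 0.012), in a range of 0.012 to 0.694. In Ago1_2 KO it was -0.39 (-1.46 to 0.67, adjusted p = 0.585). Against Dgcr8 KO, Krt7 was 6.87-fold higher in Ago1_2 KO (log2 fold change 2.78 ± 0.54, adjusted p = 0.00889) and 4.97-fold higher in Drosha KO (2.31 ± 0.54, adjusted p = 0.0208), a test of the difference between these mutants themselves. The first of these calls was lost without Dgcr8 KO library 1 (0.0655) or 2 (0.0897), in a range of 1.3e-09 to 0.0897. The second was lost without Dgcr8 KO library 1 (0.116) or 2 (0.152) and without Drosha KO library 2 (log2 fold change 1.16, adjusted p = 0.0804), with limma-voom (0.0516) and on the libraries of the compared genotypes alone (0.057), in a range of 6.66e-07 to 0.152. Fabp5, Dnm1 and Grik4 followed Krt7 most closely (root mean square differences 0.371, 0.436 and 0.437, SD 1.37).

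Krt8, the most abundant of the keratins per kb, was called in none of the 6 comparisons. It had 6.91 and 8.51 CPM in Dgcr8 KO, 23.4 and 18.7 CPM in Drosha KO, 9.03 and 21.7 CPM in Ago1_2 KO, and 12.7 and 28.9 CPM in WT. The Dgcr8 KO libraries lay below the other 6, and the other 3 genotypes overlapped. In Dgcr8 KO against WT the log2 fold change was -1.43 ± 0.47 and was not called (adjusted p = 0.0839). It passed the threshold in 3 of 18 alternatives, among them no filter on low counts (adjusted p = 0.00018) and DESeq2 (0.016). Over these alternatives the log2 fold change ran from -1.89, without WT library 1, to -0.72. Against WT the log2 fold change was 0.01 (95% interval -0.99 to 1.02) in Drosha KO and -0.45 (-1.46 to 0.56) in Ago1_2 KO. In Drosha KO against Dgcr8 KO it was 1.45 ± 0.47 (adjusted p = 0.0638), not called, though it passed the threshold in 6 of 18 alternatives, in a range of 0.000106 to 0.299. For Ago1_2 KO against Dgcr8 KO it was 0.98 (-0.06 to 2.02, adjusted p = 0.174).

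The balance of the filament partners also differed between libraries. The level of Krt8 per kb over that of Krt18 per kb was 3.85 and 2.59 in the Dgcr8 KO libraries, 2.61 and 1.93 in those of Drosha KO, 2.73 and 5.07 in those of Ago1_2 KO, and 0.883 and 1.93 in WT. Drosha KO library 2 and WT library 2 had the same ratio to 3 digits, the other mutant libraries lay above it and WT library 1 below, a description that was not tested. Genes that followed Krt8 most closely were Ndufs7, Mrps12 and Pycrl, with root mean square differences of 0.241, 0.248 and 0.261 against an SD of 0.766. Ndufs7, a subunit of mitochondrial complex I, was at 12.4 and 14.6 CPM in Dgcr8 KO, 36.4 and 34.1 CPM in Drosha KO, 23.6 and 30.98 CPM in Ago1_2 KO, and 24.4 and 56.5 CPM in WT.

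In Dgcr8 KO against WT, log2 fold change and transcript GC content were related across 16315 genes (Spearman's rho -0.444, genes not being independent replicates), and the same was seen in Drosha KO (0.425) and Ago1_2 KO (0.369) against Dgcr8 KO. The rho against WT was 0.00555 in Drosha KO and -0.0442 in Ago1_2 KO. The members' longest transcripts have 49.5% to 57.5% GC. With an offset for GC content the log2 fold changes in Dgcr8 KO against WT were -3.00 for Krt7 (adjusted p = 0.0169) and -2.10 for Krt18 (adjusted p = 0.0153), still called, and -0.91 for Krt8 and 3.24 for Cdx2. With the same offset, Tfap2c in Drosha KO against Dgcr8 KO was no longer called (adjusted p = 0.0513).

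**Figure D2:**
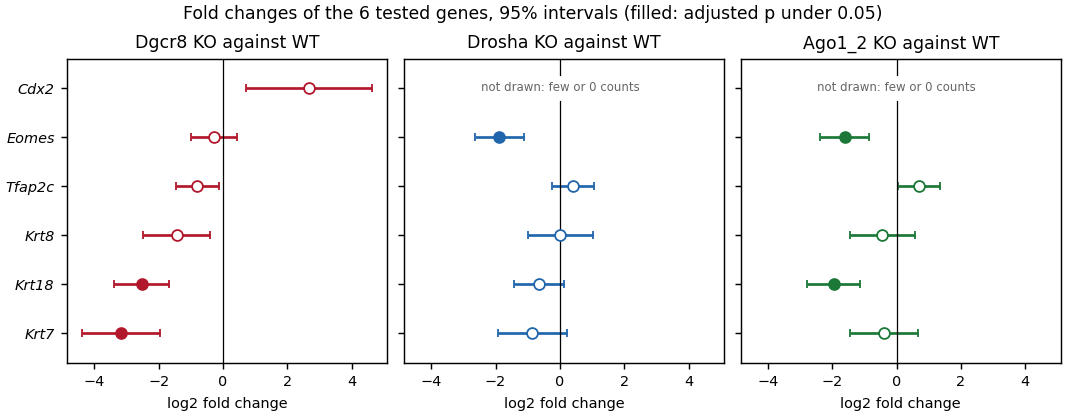
Log2 fold change (horizontal axes) of the 6 tested trophectoderm genes in Dgcr8 KO, Drosha KO and Ago1_2 KO against WT, with 95% intervals; filled points had an adjusted p under 0.05. Krt18 (-2.53) and Krt7 (-3.17) were called in Dgcr8 KO, Eomes (-1.88) in Drosha KO, and Eomes (-1.62) and Krt18 (-1.96) in Ago1_2 KO. Cdx2, a description only, is not drawn where a KO had 2 counts or fewer.

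In the comparisons with Dgcr8 KO, Cdx2 was left out of the counts for the reason given above. Of the other 5 tested genes, 4 were called in Drosha KO against Dgcr8 KO, with Eomes lower and Tfap2c, Krt7 and Krt18 higher (15.4% of all tested genes were called, 9.67% higher and 5.74% lower). In Ago1_2 KO against Dgcr8 KO, 3 of these 5 were called, with Eomes lower and Tfap2c and Krt7 higher (17.1% of all tested genes were called, 11.6% higher and 5.54% lower). In Ago1_2 KO against Drosha KO, 0 of 6 were called by edgeR and by DESeq2 (0.732% of all tested genes were called, 0.409% higher and 0.323% lower), and Krt18 alone had an unadjusted p under 0.05. The comparisons that have Dgcr8 KO in common share its libraries, and without either of them both counts were 0. The Drosha KO count was 1 without Drosha KO library 2, and the Ago1_2 KO count was 2 without Ago1_2 KO library 1 and 1 without library 2.

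The keratin members share a chromosome. Krt7 (101411043 to 101430313, plus strand), Krt8 (101996698 to 102004482, minus strand) and Krt18 (102028180 to 102032027, plus strand) lie on chromosome 15, where Krt8 and Krt18 start 23.7 kb apart in opposite directions and Krt7 ends 566 kb before Krt8. From 100 kb before Krt7 to 100 kb beyond Krt18 the table has 40 genes, of which 27 are keratins. Only 4 of those keratins had enough counts for a test, the members and Krt80, and 6 had no count in any library. Krt80, a type II keratin beside Krt7, had 0 counts in Dgcr8 KO and 49 counts in WT, at least 14.8-fold lower (adjusted p = 0.00998). Of the other 3 tested neighbours, Spryd3 was higher in Drosha KO (log2 fold change 1.17, adjusted p = 0.0126) and in Ago1_2 KO (1.40, adjusted p = 0.00426). Eif4b and Tns2 were not called against WT, though Tns2 had a log2 fold change of -2.22 in Dgcr8 KO (adjusted p = 0.0549).

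**Figure D3:**
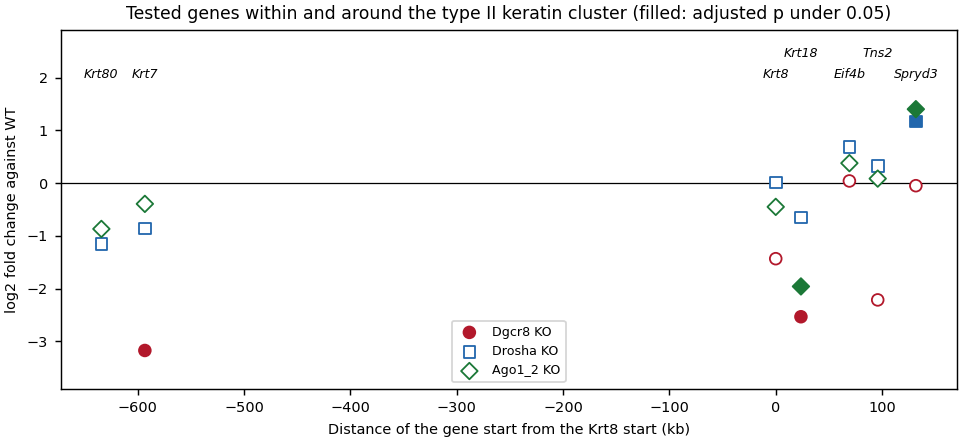
Log2 fold change against WT (vertical axis) of the 7 tested genes in and around the type II keratin cluster, by the distance of their start from the Krt8 start in kb (horizontal axis), for Dgcr8 KO, Drosha KO and Ago1_2 KO; filled marks had an adjusted p under 0.05. In Dgcr8 KO, Krt7 (-3.17) and Krt18 (-2.53) were called lower, and Tns2 was at -2.22 but not called. Eif4b, 69.3 kb from the Krt8 start, was at 0.04. Krt80 in Dgcr8 KO, with 0 counts, is not drawn.

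Reads of the keratins could be shared with near copies. The processed pseudogene Krt8-ps shares 621 stretches of 31 bases with Krt8 and had 0 to 3 counts per library. The pseudogene Gm5200 shares 131 such stretches with Krt18 and has no row in the table. Krt7 shares 106 with the opposite strand of Dvl3, which had 212 to 807 counts per library, so that the Krt7 counts are uncertain to that extent. Antisense genes overlap exons of Krt7 (Gm671, 77 bases) and Krt8 (Gm36026, 101 bases), and reads of either strand cannot be told apart here, because the sources used do not say whether the counting used strand.

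The stretch before Krt18 (chr15:102027966-102028179, plus strand, GRCm38.p6, 214 bases up to the annotated first exon) is shown because Krt18 fell in both Dgcr8 KO and Ago1_2 KO. Capitals mark the AP-2 motif at position -83 from the RefSeq start.

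Krt18 upstream window: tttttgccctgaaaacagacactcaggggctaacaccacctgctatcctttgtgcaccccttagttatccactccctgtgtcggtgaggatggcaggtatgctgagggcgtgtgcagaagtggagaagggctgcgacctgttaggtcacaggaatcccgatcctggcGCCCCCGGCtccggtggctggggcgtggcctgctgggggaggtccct

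RefSeq windows of 250 bases upstream were given for 7 of the 9 members. On both strands, the AP-2 motif GCCNNNGGC was found before Cdx2, Gata3, Krt7 and Krt18, and in 13.7% of 32851 windows. The TEAD motif GGAATG was found before Elf5 only, and in 12.6% of all windows. That Elf5 window lies wholly within annotated exons of the gene, and 162 of the 250 bases of the Krt7 window are exonic. The GC box GGGCGG was found before Gata3 and Krt7, where 1 match overlaps an AP-2 match, and in 32.7% of all windows. The AP-1 motif TGANTCA and the TATA box TATAAA were found before none of the 7, and in 6.7% and 12.4% of all windows. These matches are descriptions of letters and not evidence of binding.

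The mutated proteins make or carry miRNAs, so the members' 3′ UTRs were searched for sites that match a miRNA's seed, its bases 2 to 8. The miRNAs below are shown because the first pair belongs to the families abundant in embryonic stem cells and the second pair has a site in a tested member. Sequences are from RefSeq (GRCm38.p6) with the seed in capitals.

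miR-294-3p: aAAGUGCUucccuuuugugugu

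miR-17-5p: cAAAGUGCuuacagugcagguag

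miR-92a-3p: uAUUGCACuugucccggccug

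miR-16-5p: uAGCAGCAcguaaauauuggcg

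No member's longest 3′ UTR held the 7-base site of the miR-291a, miR-294 and miR-295 seed, which 15.0% of 20449 UTRs held, nor that of the miR-17, miR-20a and miR-93 seed (2462 of them). Sites for miR-19b (11.7%), miR-200b (13.5%) and miR-203 (16.3%) were also found in none. The miR-92a site was found in Eomes and Hand1 (6.7% of UTRs), the miR-16 site in Cdx2 (20.7%) and the let-7a site in Hand1 (9.2%). The sites in the tested members are shown with 8 bases on either side, the site in capitals.

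Eomes, miR-92a site: cctgttttGTGCAATtctctgag

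Cdx2, miR-16 site: gaattgttTGCTGCTgttcgagt

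Eomes, with a miR-92a site, was lower than WT in Drosha KO and Ago1_2 KO, and Cdx2, with a miR-16 site, gave more counts than WT only in Dgcr8 KO. No miRNA was measured in these libraries, and no effect of a site was tested.

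The other genes of the trophectoderm programme were read from 7 lists. Medians of log2 fold change were set beside the median of all tested genes. That median was between -0.03 and -0.02 in the 3 comparisons with WT. No list's number of called genes was tested against the share called among all tested genes, so these numbers are descriptions. Against WT, that share was 6.93% (Dgcr8 KO), 11.4% (Drosha KO) or 17.6% (Ago1_2 KO). Of 17 further trophoblast transcription factors, 15 were tested: 0 were called in Dgcr8 KO, 1 higher and 1 lower in Drosha KO, and 2 higher and 2 lower in Ago1_2 KO (medians -0.12, 0.31 and 0.22). Pou2f3, a POU factor, was at 2.04 and 4.77 CPM in Drosha KO, 2.07 and 2.32 CPM in Ago1_2 KO, and 25.2 and 29.9 CPM in WT (log2 fold changes -2.99, adjusted p = 0.00301, and -3.66, adjusted p = 0.00115). Sox21, a SOX factor that regulates Cdx2 in the early mouse embryo, rose in Drosha KO (1.38, adjusted p = 0.0142) and Ago1_2 KO (1.39, adjusted p = 0.00977). Tfap2a, the AP-2 alpha paralogue of Tfap2c, fell in Ago1_2 KO (-1.46, adjusted p = 0.035). Msx2, a homeobox factor, had 57 counts in Ago1_2 KO and 10 in WT (log2 fold change 2.64). It passed the filter only through the mutants, so this is a description, though the count called higher in Ago1_2 KO includes it. Called higher in Drosha KO were 2 without Drosha KO library 1 and 4 without WT library 1. Called higher in Ago1_2 KO were 0 without Ago1_2 KO library 2, 1 without its library 1 or either Dgcr8 KO library, and 4 without WT library 1, and called lower was 1 without any of those mutant libraries. In Dgcr8 KO, 1 was called higher without WT library 1, and 1 lower without WT library 2 or either Drosha KO library.

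Of 23 upstream regulators from the Hippo and Notch pathways, 1 was called lower in Dgcr8 KO, 4 higher in Drosha KO and 4 higher in Ago1_2 KO (medians 0.40, 0.25 and 0.35). Ccn1, a secreted target of YAP, was at 2.53 and 2.67 CPM in Dgcr8 KO and 13.04 and 12.8 CPM in WT (log2 fold change -2.31, adjusted p = 0.0168). Ccn2, also on this list and named after its value was seen, went the other way without being called. Its mean was 21.6 CPM in Dgcr8 KO and 14.2 CPM in WT (log2 fold change 0.60, adjusted p = 0.286). Lats2, a kinase that restrains YAP, was at 35.1 and 15.9 CPM in Drosha KO, 13.2 and 13.5 CPM in Ago1_2 KO, and 5.42 and 3.24 CPM in WT (2.56, adjusted p = 0.00629, and 1.63, adjusted p = 0.024). Nf2, which activates the Lats kinases, rose in both (0.98, adjusted p = 0.0194, and 1.08, adjusted p = 0.01), and the receptor Notch1 rose in Ago1_2 KO (1.01, adjusted p = 0.0239). Tead4, the TEAD factor that drives Cdx2 in the embryo, and Lats1 rose in Drosha KO (0.97, adjusted p = 0.03, and 0.90, adjusted p = 0.047), and Notch2 rose in Ago1_2 KO (1.00, adjusted p = 0.0301), these 3 being named after their values were seen. The count in Drosha KO was 1 without Drosha KO library 1, 2 without any 1 of the Dgcr8 KO and Ago1_2 KO libraries and 9 without WT library 1. In Dgcr8 KO, 7 were called higher without WT library 1 and 1 without either Drosha KO library, and called lower were 0 without either Dgcr8 KO library and 2 without WT library 2. The count in Ago1_2 KO was 0 without either of its own libraries, 1 without WT library 2 and 8 without WT library 1.

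Of 15 counterparts and repressors of Cdx2 in embryonic stem cells, such as Pou5f1, Nanog and polycomb and NuRD subunits, 0 were called in Dgcr8 KO, 0 in Drosha KO and 1 in Ago1_2 KO (medians 0.09, 0.19 and -0.01). That gene was Sall4, a zinc-finger factor, at 170 and 177 CPM in Ago1_2 KO and 106 and 123 CPM in WT (log2 fold change 0.60, adjusted p = 0.049). The call was lost without either Ago1_2 KO library and without either Dgcr8 KO library, and without WT library 1 the counts called higher were 3 in each of the mutants, with 2 lower in Dgcr8 KO. Without Drosha KO library 2, 1 was called higher in Drosha KO.

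Of 17 epithelial junction and transport genes, 3 were called lower in each mutant, namely Cldn6, Cldn7 and Epcam, and 2 were called higher in Drosha KO (medians -0.64 in Dgcr8 KO, -0.32 in Drosha KO and 0.03 in Ago1_2 KO). Epcam, an epithelial adhesion protein, was at 16.5 and 19.9 CPM in Dgcr8 KO, 22.7 and 23.4 CPM in Drosha KO, 13.6 and 17.1 CPM in Ago1_2 KO, and 64.1 and 46.3 CPM in WT. Its log2 fold changes against WT were -1.60 in Dgcr8 KO (adjusted p = 0.00936), -1.26 in Drosha KO (adjusted p = 0.0125) and -1.85 in Ago1_2 KO (adjusted p = 0.00203). Cldn7, a tight junction claudin, was at 0.422 and 0.699 CPM in Dgcr8 KO, 0.511 and 3.22 CPM in Drosha KO, 0.875 and 1.27 CPM in Ago1_2 KO, and 17.0 and 7.98 CPM in WT. Cldn6, another claudin, had log2 fold changes of -2.56 in Dgcr8 KO, -2.58 in Drosha KO and -3.02 in Ago1_2 KO. All mutant libraries lay below both WT libraries for these 3 genes. The 2 that rose in Drosha KO were Jup, plakoglobin (0.86, adjusted p = 0.0264), and Aqp3, a water channel (1.57, adjusted p = 0.033), the second named after its value was seen. In Dgcr8 KO, called lower were 0 without either Dgcr8 KO library, 2 without Ago1_2 KO library 1, and 5 without Drosha KO library 1 or WT library 1, where in the last case 2 were called higher. In Drosha KO, called lower were 0 without Drosha KO library 1 and 2 without WT library 1 or any 1 of the Dgcr8 KO and Ago1_2 KO libraries. Called higher there were 0 without Drosha KO library 2 or either Dgcr8 KO library, 4 without WT library 1, and 1 without any 1 of the others. In Ago1_2 KO, called lower were 2 without its library 1 and 1 without its library 2, and called higher were 4 without WT library 1 and 1 without WT library 2 or either Drosha KO library.

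Of 12 other keratins, 6 were tested: 1 was called lower in Dgcr8 KO (Krt80), 1 higher in Drosha KO and 3 higher in Ago1_2 KO. Krt20, a type I keratin, had 0 counts in both Dgcr8 KO and WT. By counts it was at least 7.66-fold higher than WT in Drosha KO and at least 17.3-fold higher in Ago1_2 KO. It passed the filter only through these mutants, so these ratios are descriptions, though the counts called higher include it. In Drosha KO it was the only one of this list called. Krt42, a type I keratin of stratified epithelia, was at 20.8 and 33.8 CPM in Ago1_2 KO and 2.37 and 5.42 CPM in WT (log2 fold change 2.80, adjusted p = 0.0195). Krt17 was at 8.44 and 10.8 CPM in Ago1_2 KO and 0.226 and 1.5 CPM in WT (log2 fold change 3.44). It passed the filter only through Drosha KO and Ago1_2 KO, so this is a description, though the count called higher in Ago1_2 KO includes it. With Krt20 and Krt80 set to their bounds where a group had no counts, the list's medians were -1.92 in Dgcr8 KO, 0.65 in Drosha KO and 2.09 in Ago1_2 KO. Thus Krt18 fell in Ago1_2 KO, where Krt42 rose. With Krt17 and Krt20, both descriptions, 3 other keratins were counted as called higher there. That count was 0 without Ago1_2 KO library 1, 1 without its library 2 and 2 without WT library 1. The Drosha KO count was 0 without Drosha KO library 1, either Ago1_2 KO library or WT library 2, and 2 without Drosha KO library 2. The Dgcr8 KO count was 0 without either of its libraries and 2 without WT library 1.

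Of 14 signalling and surface genes of trophoblast stem cells, 2 were called lower in Dgcr8 KO, 1 lower in Drosha KO, and 3 higher and 3 lower in Ago1_2 KO (medians -0.17, 0.22 and -0.08). Fgfr2, the FGF receptor of the trophectoderm, was at 24.0 and 17.4 CPM in Ago1_2 KO and 4.85 and 2.61 CPM in WT (log2 fold change 2.47, adjusted p = 0.00635). Nodal, a TGF-beta ligand, rose in Ago1_2 KO (1.66, adjusted p = 0.00412), and Ddah1 fell in Dgcr8 KO (-1.37, adjusted p = 0.0179) and Ago1_2 KO (-1.02, adjusted p = 0.024). Plet1, a surface protein of trophoblast progenitors, was at 3.96 and 5.08 CPM in Dgcr8 KO and 20.5 and 14.8 CPM in WT (-1.97, adjusted p = 0.0171). Named after their values were seen, Cd9 was called lower in Drosha KO (-0.85) and Ago1_2 KO (-0.82), Bmp4 lower (-1.79) and Fgf4 higher (0.88) in Ago1_2 KO. The Dgcr8 KO count was 0 without either of its libraries, 4 without WT library 1 and 5 without either Drosha KO library. In Drosha KO, called lower were 0 without WT library 2 or any 1 of the Dgcr8 KO and Ago1_2 KO libraries, and called higher were 2 without WT library 2 and 1 without WT library 1 or either Drosha KO library. Without Ago1_2 KO library 1 the Ago1_2 KO counts were 1 higher and 0 lower, without its library 2 they were 2 higher and 1 lower, and 1 was lower without WT library 1. In the same comparison 2 were lower without WT library 2 or either Dgcr8 KO library.

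Of 20 products of differentiated trophoblast and placenta, 6 were tested, and 8 had no count in any of the 8 libraries, among them the prolactin family genes Prl3d1, Prl3b1, Prl2c2 and Prl8a9. Peg10, an imprinted gene needed in the placenta, was called higher in all mutants, at 156 and 163 CPM in Dgcr8 KO, 58.9 and 41.0 CPM in Drosha KO, 39.5 and 24.5 CPM in Ago1_2 KO, and 12.5 and 4.64 CPM in WT. Its log2 fold changes against WT were 4.22 in Dgcr8 KO (adjusted p = 0.00258), 2.55 in Drosha KO (adjusted p = 0.00771) and 1.91 in Ago1_2 KO (adjusted p = 0.0166). Phlda2, an imprinted inhibitor of placental growth, had 1 count in Dgcr8 KO and 315 counts in WT, a count ratio of 285-fold lower (exact 95% interval 50.7 to 11280, adjusted p = 0.0096). The counts called in either direction were 1 higher and 1 lower in Dgcr8 KO, 2 higher in Drosha KO and 2 higher in Ago1_2 KO (medians -1.45, 0.57 and 0.51), and the lower count in Dgcr8 KO was 0 without either of its libraries. In Dgcr8 KO, 2 were called in each direction without either Drosha KO library, and 2 lower without WT library 1. The count in Drosha KO was 1 without any 1 library other than Drosha KO library 2, and that in Ago1_2 KO was 0 without its library 1 and 1 without its library 2 or either WT library.

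**Figure D4:**
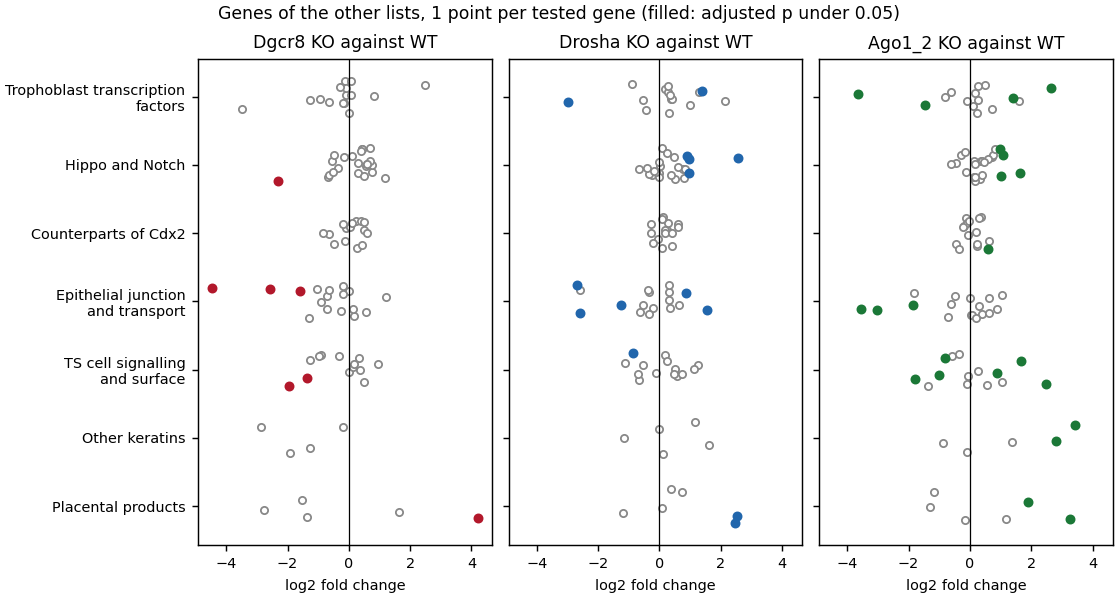
Log2 fold change (horizontal axes) in Dgcr8 KO, Drosha KO and Ago1_2 KO against WT of the tested genes of 7 further lists (rows), 1 point per gene; filled points had an adjusted p under 0.05, and genes with 3 counts or fewer in either genotype are not drawn. Cldn6, Cldn7 and Epcam are the filled low points of the epithelial row in each mutant, and Peg10 is filled in the placental row of each.

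Summed levels of markers of other cell types also differed between libraries. The summed CPM of 13 primitive endoderm markers was 171 and 135 in the Dgcr8 KO libraries, 90.2 and 189 in those of Drosha KO, 160 and 153 in those of Ago1_2 KO, and 249 and 258 in WT. Most of it was Lama1, a basement membrane laminin, at 203 and 208 CPM in WT, and without Lama1 the sum was 46.6 and 40.5 in Dgcr8 KO, 44.1 and 76.8 for Drosha KO, 90.4 and 102.4 for Ago1_2 KO, and 45.4 and 49.6 for WT. Lama1 was called lower in Drosha KO and Ago1_2 KO and Hnf4a lower in Ago1_2 KO, while Gata4 was called higher in Drosha KO (log2 fold change 1.56, adjusted p = 0.043) and Lamb1 higher in Ago1_2 KO (1.20, adjusted p = 0.0231). Of 10 surface ectoderm markers, 9 had counts (not Tfap2b), and their sum was 48.0 and 54.8 in the Dgcr8 KO libraries, 33.5 and 39.6 in those of Drosha KO, 45.7 and 44.9 in those of Ago1_2 KO, and 52.7 and 55.7 in WT. Of 8 neural markers, 7 had counts (not Neurog2), and their sum was 19.9 and 21.5 in the Dgcr8 KO libraries, 61.9 and 41.4 in those of Drosha KO, 87.2 and 93.9 in those of Ago1_2 KO, and 37.5 and 39.9 in WT. Sox1 and Nes were called lower than WT in Dgcr8 KO and not called in the other mutants. Tubb3 was called higher in Drosha KO and Ago1_2 KO. Pax6 had 53 counts in Drosha KO and 411 in Ago1_2 KO against 8 in WT, a description, since it passed the filter only through these mutants. Fibroblast markers, 7 of 8 with counts (not S100a4), summed to at most 8.90 CPM in any library. The surface ectoderm list shares Tfap2a and Dlx3 with the list of trophoblast factors, and Krt5, Krt14 and Krt15 with that of other keratins. Their part in the levels of the trophectoderm genes was not tested.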

How the data were processed

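Polyadenylated RNA of 8 libraries was measured, 2 per genotype. The file the authors deposited holds whole-number counts, 1 row per gene. Libraries were made with a TruSeq kit by a reverse-stranded protocol, per the labels' protocols. Reads were aligned with STAR 2.4.2a to mm10 (GRCm38), per the submitters' processing notes. Not given in the sources used here are the read counter, its strand setting and its annotation.

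A symbol was found for 47224 of 47643 gene IDs, and GENCODE M21 (GRCm38) has 39106 of them in the same version; it gave coordinates, exon lengths and 3′ UTRs. Counts were filtered with filterByExpr by genotype (16388 genes left), scaled by TMM and fitted with 1 mean per genotype in edgeR 4.0.16 (limma 3.58.1, R 4.3.3), with robust quasi-likelihood F tests and Benjamini-Hochberg adjustment over all genes. The 6 comparisons were each KO against WT and the KOs against each other. The fit was tested on simulated data. Python 3.11.15 and pandas 2.3.3 read the tables.

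CPM used TMM-scaled totals, and CPM per kb the merged exon length. A group without counts was given 3 counts over the group as a floor, and count ratios carry exact 95% binomial intervals. Named besides the 9 members were up to 4 genes of each list with the smallest adjusted p in any comparison with WT, and the 3 genes most like each tested member, by the root mean square difference of centred log2 CPM (prior count 2), among genes with a mean of 5 CPM or more in 1 genotype. Some genes that this rule names are not reported here. The members and lists were chosen with earlier results of these data known.

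Alternatives were DESeq2 1.42.0 and limma-voom in place of edgeR, scaling by DESeq2 size factors or by library size only, a filter of 1 CPM in 2 libraries or none, only the compared genotypes, the replicate number as a block, a GC offset, block and offset together, and each library left out. Reading the comparisons of Cdx2, and those of Evx1, Kdr, Msx2, Krt17, Krt20 and Pax6 against WT, as descriptions was chosen after seeing the data. So were leaving Cdx2 out of the counts against Dgcr8 KO, and leaving Lama1 out of the endoderm marker sum.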

Additional observations from a re-analysis of the deposited data

How the results depend on the processing

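The number of trophectoderm genes called against WT was 2 in Dgcr8 KO, 1 in Drosha KO, 2 in Ago1_2 KO, and with no filter on low counts it was 5, 3 and 4. When single libraries were left out it ran, against WT, from 0 to 3 in Dgcr8 KO, from 1 to 2 in Drosha KO, and from 0 to 4 in Ago1_2 KO. It ran between 0 and 6 in Drosha KO against Dgcr8 KO (5 with all libraries) and between 1 and 4 in Ago1_2 KO against Dgcr8 KO (4 with all libraries), and was 0 in Ago1_2 KO against Drosha KO throughout. The counts against Dgcr8 KO include Cdx2 here, and without it they are 4 and 3. Of the alternatives run on single genes, 10 reversed a sign, none of them of a called value. On the log2 scale, Eomes in Dgcr8 KO against WT was 0.0281 with the replicate block and GC offset, 0.137 without WT library 1 and at its lowest -0.60 without WT library 2. Krt8 in Drosha KO against WT was -0.155 without Drosha KO library 1 and -0.437 without WT library 1 (highest 0.748), and Tfap2c was -0.0607 without Drosha KO library 2 (highest 0.774). Krt8 in Ago1_2 KO against WT was 0.0590 without Ago1_2 KO library 1 and 0.278 without WT library 2 (lowest -1.20). For Ago1_2 KO against Drosha KO, Tfap2c was -0.0532 (highest 0.778) and Krt7 -0.155 (highest 1.63) without Drosha KO library 1, and Krt8 was 0.0449 without Ago1_2 KO library 1 (lowest -1.22). The cause was not tested.

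Deviations of same-numbered libraries from their genotype means correlated positively in all 6 pairs of genotypes, at 0.0963 for Drosha KO with WT and 0.127 to 0.245 for the other 5. Pairing was taken as shown only where every pair exceeded 0.1, so 1 value just under it decided against the block, and the labels do not say what a number marks. With the replicate number as a block, Krt8 in Drosha KO against Dgcr8 KO passed the threshold (adjusted p = 0.0323), which made 6 members called there, and it changed no other call of a member. Over all genes the block gave 2795 calls against WT in Dgcr8 KO, 2884 in Drosha KO, 4053 in Ago1_2 KO, where 1136, 1862 and 2887 were called without it.

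Counts over all genes moved by more than 1.5 times elsewhere too. With no filter they were 3241, 3413 and 4431 against WT in that order of mutants, with DESeq2 2282 in Dgcr8 KO, with a GC offset 713 in Dgcr8 KO, and on the compared genotypes alone 723 in Dgcr8 KO and 589 in Drosha KO. The block with the GC offset gave 3061 in Drosha KO and 4483 in Ago1_2 KO. Ago1_2 KO against Dgcr8 KO had 7171 on the compared genotypes alone, where 2808 were called in the fit of all 8 libraries. Ago1_2 KO against Drosha KO had 120 called, 648 with no filter, 362 with DESeq2 and 15 on the compared genotypes alone. Single libraries left out gave, against WT, 40 to 4245 in Dgcr8 KO, 714 to 4003 in Drosha KO, 556 to 4955 in Ago1_2 KO; against Dgcr8 KO, 320 to 3900 in Drosha KO, 513 to 4239 in Ago1_2 KO; and 6 to 176 in Ago1_2 KO against Drosha KO. Depth limits Elf5, Hand1 and Gata3, whose counts were too few for the test, and Cdx2 outside Dgcr8 KO.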
